A study of Mus musculus with 12 samples.

Results

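The genes described here are 8 components of the gp130 cytokine axis: the cytokine Lif, the shared receptor chain Il6st, the partner receptor chains Lifr, Osmr, Il6ra and Cntfr, the transcription factor Stat3 and the feedback inhibitor Socs3. They were taken by symbol from the deposited count tables, which list 40853 symbols, and all 8 were present. RNA had been sequenced from microglia and astrocytes sorted by flow cytometry from the whole brain of 6 mice aged 8 to 9 weeks. 3 mice were wild type (WT) and 3 were KPNA4 knockouts (KO), lacking the gene of importin α4, a receptor that carries proteins into the nucleus, and each mouse gave 1 microglia and 1 astrocyte library. All 6 mice, the WT controls included, had received lipopolysaccharide (LPS, a bacterial cell wall component) at 1 mg/kg into the peritoneal cavity 20 h before dissection, and no untreated mouse was analysed here, so every level below is a level after LPS. Cell type and genotype together make 4 groups of 3 libraries. The labels do not say which part of Kpna4 was removed or in which cells.

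Most cytokines of the interleukin-6 family signal through gp130, the protein made from Il6st, which is joined by a second chain that sets which cytokine is recognised. LIF uses gp130 with the LIF receptor, oncostatin M uses gp130 with the oncostatin M receptor, and interleukin-6 and ciliary neurotrophic factor first bind the non-signalling chains Il6ra and Cntfr. Janus kinases bound to the receptors then phosphorylate STAT3, which enters the nucleus and switches on target genes, among them Socs3, whose product binds gp130 and stops the signal. In the brain, STAT3 is known for its part in astrocyte reactivity, and gp130 cytokines for carrying signals between glia. Importins of the α family have been described as carriers of STAT3 into the nucleus.

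Library totals were 10.3 M to 14.5 M estimated counts in microglia, against 10.7 M to 15.6 M in astrocytes. A set of 8 abundant non-coding RNAs, fixed by name, took 11.8 to 15.4% of the counts of the microglia libraries and 26.2 to 39.5% of those of the astrocyte libraries. Levels are given as CPM, counts scaled to a common library total,, in the order of replicates 1, 2 and 3, and fold changes come from edgeR's quasi-likelihood test with TMM scaling, which reads the libraries relative to the bulk of genes. On that scale the median of all genes tested stood at a log2 difference of 0.19 between astrocytes and microglia, and at -0.09 when library totals alone were used. Each sorted type carried its own markers. The 10 microglia markers made up 1.60 to 2.01% of the counts in microglia but 0.0159 to 0.0597% in astrocytes. The 10 astrocyte markers made up 1.55 to 2.06% in astrocytes but 0.0325 to 0.0704% in microglia, with no marker of either list at 0 in every library of a group. Kpna4 itself had 67.9, 96.4 and 89.0 CPM in WT microglia and 78.6, 68.5 and 59.8 CPM in KO microglia, and 40.1, 51.1 and 57.6 CPM in WT astrocytes against 69.0, 43.8 and 80.2 CPM in KO astrocytes. Its groups overlapped in both cell types (edgeR, adjusted p = 0.778 and 0.999), so its level did not separate the libraries labelled KO from those labelled WT. Where counts outside the removed part are still made, this level checks nothing, and WT and KO stand below for the libraries so labelled. As the labels name separate animals but no separate litters or days, p-values of KO against WT measure the spread between these animals. The main tests that use both cell types treat the 2 libraries of a mouse as independent, and the animal as a block was an alternative.

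The axis was divided between the cell types. The ligand-specific chains lay apart, Cntfr and Osmr in astrocytes and Il6ra in microglia. The shared chain Il6st and its partner Lifr were found in both, 1.28-fold and 1.61-fold higher in microglia. Stat3 was about 2.15-fold and Socs3 40.7-fold higher in microglia. Of the 8 genes, 7 differed between cell types at an adjusted p under 0.05 in edgeR, 2 of them higher in astrocytes and 5 higher in microglia. Over all 17294 genes tested, 64.6% differed, 36.4% upward in astrocytes and 28.2% upward in microglia, so that a difference as such was common. At an unadjusted p under 0.05 the 7 genes stood beside 67.5% of all genes. For the same 7 genes the 6 astrocyte and 6 microglia libraries did not overlap in CPM by library total, which was the case for 46.5% of all genes. The median log2 difference of the 8 genes was -0.90 against 0.19 for all genes.

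**Figure D1:**
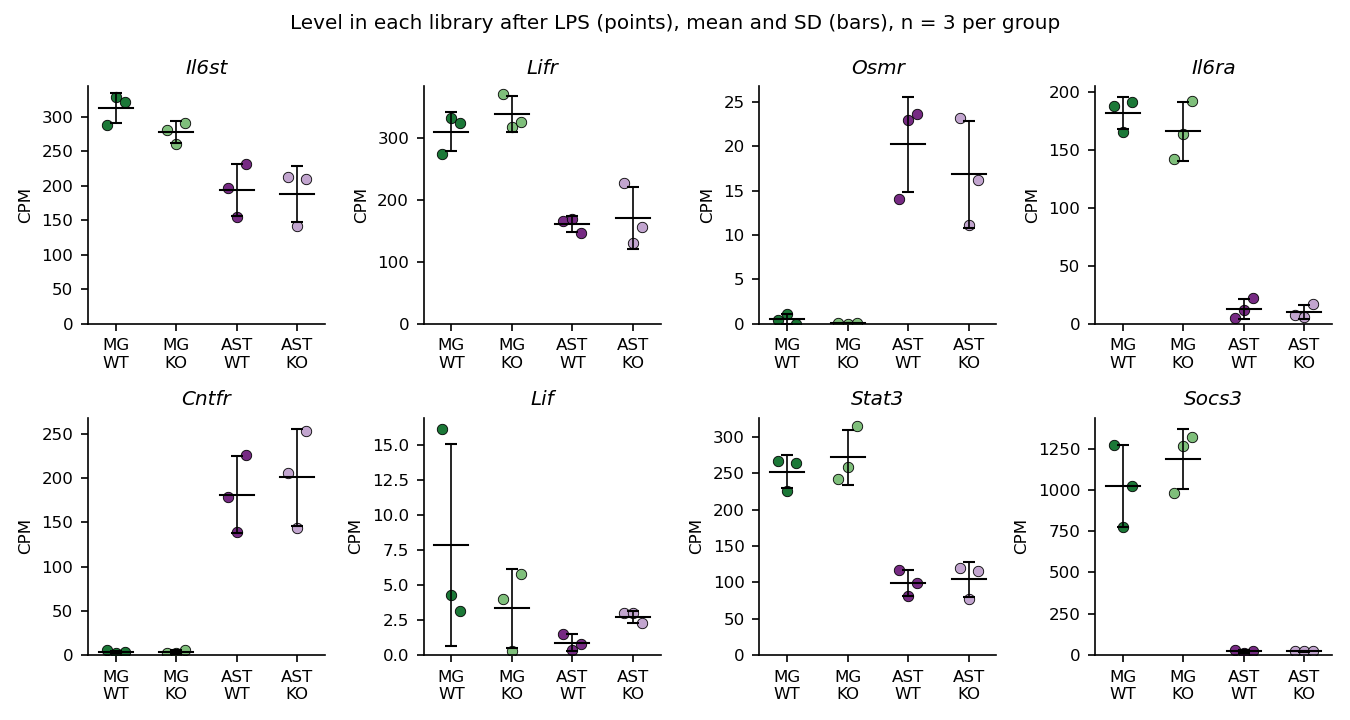
Level of the 8 genes in CPM (vertical axes, separate scales starting at 0) in each of the 12 libraries, with 4 groups of 3 along the horizontal axes. Points are libraries, horizontal lines the group means and error bars the SD, with microglia marked MG and astrocytes AST. Socs3 lies between 775 and 1319 CPM in microglia and between 10.2 and 29.6 CPM in astrocytes, while Cntfr lies below 5.9 CPM in microglia and above 139 CPM in astrocytes.

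Il6st, the shared chain of the axis, was measured at 288, 329 and 322 CPM in WT microglia and at 281, 261 and 291 CPM in KO microglia. In astrocytes it was at 196, 155 and 231 CPM in WT and at 213, 141 and 209 CPM in KO. In CPM by library total every microglia library lay above every astrocyte library, but the gap was narrow. The TMM factors, by which levels are divided on the scale of the test, were 1.15 for the lowest microglia library and 1.01 for the highest astrocyte library. This brings those libraries to about the same level, so the separation of Il6st depends on the scaling. The fitted level was 1.28-fold higher in microglia (log2 -0.36 ± 0.13 SE, edgeR adjusted p = 0.0217), in 6 of 6 animals. In bulk libraries a lower level per cell and fewer expressing cells cannot be told apart. The call was lost when genes of low count were not filtered out (edgeR adjusted p = 0.106).

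Lifr, the chain that pairs with gp130 for LIF and for ciliary neurotrophic factor, followed the same order. It was at 274, 332 and 324 CPM in WT microglia and at 371, 318 and 326 CPM in KO microglia. WT astrocytes had 166, 169 and 146 CPM and KO astrocytes 227, 130 and 156 CPM. The highest astrocyte library, KO replicate 1, stayed below the lowest microglia library. The level was 1.61-fold higher in microglia (log2 -0.69 ± 0.14 SE, edgeR adjusted p = 4.95e-04), again in 6 of 6 animals.

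Osmr encodes the chain that makes gp130 a receptor for oncostatin M. It was at 14.1, 22.9 and 23.7 CPM in WT astrocytes and at 23.2, 11.2 and 16.2 CPM in KO astrocytes. In microglia it was close to nothing, with 6, 12 and 0 counts in the WT libraries and 1, 0 and 1 counts in the KO libraries. A count of 3, taken as the floor, corresponds to 0.27 CPM in the WT microglia library with the highest count. The 6 astrocyte libraries all lay above the 6 microglia libraries, and the fitted difference was 122-fold (log2 6.93 ± 0.63 SE, edgeR adjusted p = 2.16e-07). Osmr passed the filter only through its astrocyte counts. The size of the fold and its p thus rest on 0 to 12 counts per microglia library. Mean levels were 18.6 CPM in astrocytes and 0.282 CPM in microglia.

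Il6ra, which binds interleukin-6 before gp130 joins, was at 189, 166 and 191 CPM in WT microglia and at 142, 164 and 193 CPM in KO microglia. In astrocytes it was at 5.11, 11.3 and 21.9 CPM in WT and at 7.14, 5.68 and 16.9 CPM in KO. Replicate 3 was the highest astrocyte library in both genotypes, and still far below all microglia libraries. The level was 12.9-fold higher in microglia (log2 -3.69 ± 0.32 SE, edgeR adjusted p = 1.13e-07). In the mouse annotation GENCODE M21, 242 exon bases of Il6ra are shared with Gm42809 on the opposite strand, and a kit that does not mark strand cannot tell such reads apart.

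Cntfr, the membrane-anchored chain for ciliary neurotrophic factor, was the reverse. WT astrocytes had 179, 140 and 226 CPM and KO astrocytes 206, 144 and 254 CPM. Microglia had 5.13, 2.69 and 3.58 CPM in WT and 1.74, 2.09 and 5.85 CPM in KO. The lowest astrocyte library was more than an order of magnitude above the highest microglia library. Cntfr was 64.0-fold higher in astrocytes (log2 6.0 ± 0.32 SE, edgeR adjusted p = 8.61e-10) in 6 of 6 animals. It was the only gene of the 8 with estimated counts that were not whole (at a tolerance of 0.001), in 4 of 12 libraries, which happens when reads also match another gene.

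Lif was rare and uneven. WT microglia had 16.1, 4.31 and 3.12 CPM and KO microglia 3.97, 0.251 and 5.78 CPM, resting on 3 to 214 counts. WT astrocytes had 1.51, 0.325 and 0.820 CPM and KO astrocytes 2.98, 2.98 and 2.25 CPM, resting on 4 to 35 counts. Replicate 1 of WT microglia held about as many Lif counts as the 5 other microglia libraries together, and the cell types overlapped. The level was higher in microglia in 5 of 6 animals, and the difference did not pass the test (log2 -1.45 ± 0.71 SE, edgeR adjusted p = 0.0857). Without KO replicate 2 it did (log2 -1.99, edgeR adjusted p = 0.0169), as it did when library totals replaced TMM (edgeR adjusted p = 0.0423).

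Stat3, the transcription factor of the axis, was at 267, 227 and 264 CPM in WT microglia and at 243, 259 and 315 CPM in KO microglia. It was at 118, 81.7 and 98.7 CPM in WT astrocytes and at 120, 76.6 and 116 CPM in KO astrocytes. All microglia libraries lay above all astrocyte libraries. The fitted difference was 2.15-fold (log2 -1.10 ± 0.15 SE, edgeR adjusted p = 1.03e-05), in 6 of 6 animals. Its exons share 72 bases with Stat5a on the opposite strand in GENCODE M21.

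Socs3 showed the widest separation among the genes higher in microglia. It was at 1274, 775 and 1023 CPM in WT microglia and at 979, 1264 and 1319 CPM in KO microglia. In astrocytes it was at 29.6, 10.2 and 27.3 CPM in WT and at 22.4, 21.3 and 24.3 CPM in KO. WT replicate 2 was the lowest library of both cell types. The difference was 40.7-fold (log2 -5.35 ± 0.27 SE, edgeR adjusted p = 6.06e-10), and within animals the CPM ratio of microglia to astrocytes ran from 37.5 to 75.7.

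Because Socs3 is a direct target of STAT3, the 250 bases upstream of each start site were searched for TTCNNNGAA, the palindromic core that STAT proteins bind, in the RefSeq promoters of build GRCm38.p6. Being palindromic, the motif reads alike on both strands. All 8 genes had at least 1 promoter in the table, and only that of Socs3 held a match, from 154 to 146 bases upstream of the start. Of all 27025 genes with a promoter searched, 8.13% held a match. The window of Socs3 is shown with the match in capitals, beside that of Osmr, the astrocyte receptor chain, which holds none. They lie on the minus strand at chr11:117969367-117969616 and chr15:6874314-6874563 and are written 5′ to 3′ toward the start site.
Socs3: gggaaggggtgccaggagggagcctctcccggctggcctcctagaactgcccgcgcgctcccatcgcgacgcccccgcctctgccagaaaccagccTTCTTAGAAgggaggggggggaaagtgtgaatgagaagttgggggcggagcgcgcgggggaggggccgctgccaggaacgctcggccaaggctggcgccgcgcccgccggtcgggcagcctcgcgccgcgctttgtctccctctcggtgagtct
Osmr: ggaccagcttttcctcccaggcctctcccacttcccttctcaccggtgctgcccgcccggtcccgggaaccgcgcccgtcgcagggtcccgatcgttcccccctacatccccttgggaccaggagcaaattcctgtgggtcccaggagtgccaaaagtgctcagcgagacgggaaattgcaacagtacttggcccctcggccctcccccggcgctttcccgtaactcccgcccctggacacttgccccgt
A match is a description of these letters, not a bound site, and no binding was measured. The absence of one in Osmr says only that the letters are not in this window.

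Levels of different genes can be compared only per transcript length, here CPM per kilobase of merged exons in GENCODE M21. In microglia Socs3 stood first at 433 ± 84.2 CPM per kb (SD, n = 6), followed by Stat3 at 42.2 ± 4.81, Lifr at 31.2 ± 3.0 and Il6st at 26.9 ± 2.33 CPM per kb. Lifr and Il6st overlapped, while Stat3 lay above both. Il6ra followed at 20.2 ± 2.33 CPM per kb, but at 52.1 ± 6.04 CPM per kb when the shorter principal transcript was used as its length, where Stat3 was at 58.1 ± 6.63 CPM per kb and their libraries overlapped. In astrocytes Cntfr led at 93.0 ± 22.1 CPM per kb. Il6st, Stat3 and Lifr came next at 17.4 ± 3.22, 16.3 ± 3.06 and 16.0 ± 3.19 CPM per kb and did not differ beyond their spread. Socs3 had 8.82 ± 2.64 CPM per kb and Osmr 3.38 ± 0.986 CPM per kb, with overlapping libraries. Il6ra and Lif were last, at 1.31 ± 0.787 and 0.447 ± 0.275 CPM per kb, and overlapped too. With the principal transcript as its length, Il6ra was at 3.39 ± 2.03 CPM per kb in astrocytes, overlapping Osmr, and every library lay above those of Lif.

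**Figure D2:**
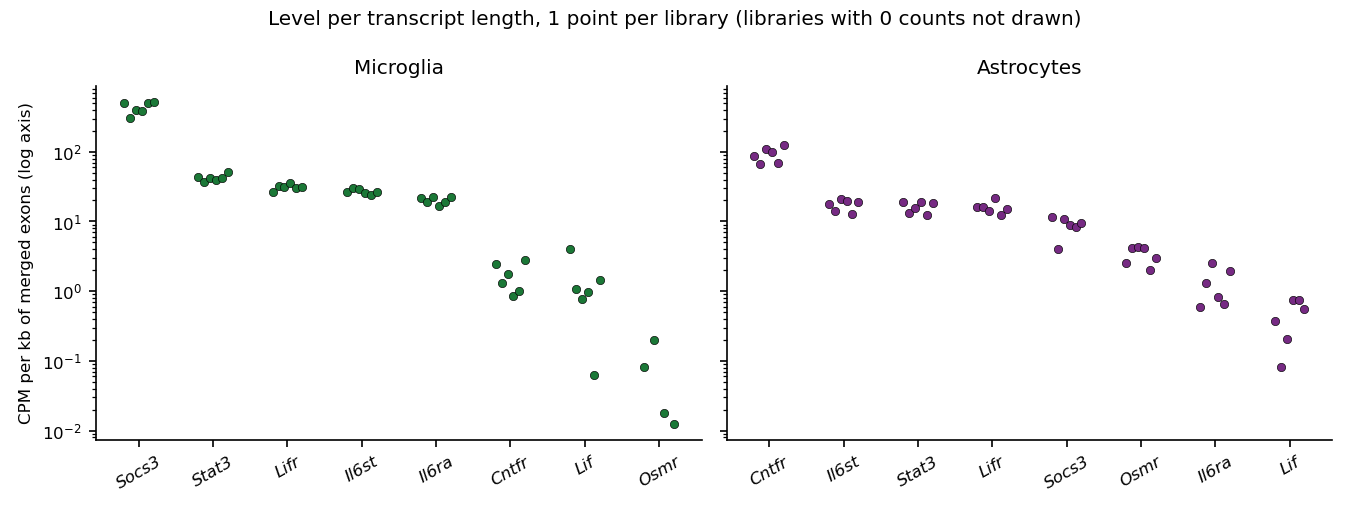
Level of the 8 genes in CPM per kb of merged exons (vertical log axis) in microglia and astrocytes, 1 point per library, with libraries at 0 counts left out. Socs3 leads in microglia at a mean of 433 CPM per kb and Cntfr in astrocytes at a mean of 93.0 CPM per kb, while Il6st, Stat3 and Lifr overlap in astrocytes and Stat3 lies above the other two in microglia.

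The low values in the less expressing cell type were set beside the markers of the sorted cells, read in the same animals. The 10 microglia markers, summed, had 0.972 to 3.66% of their microglia level in the astrocytes of the same animal. Socs3 in astrocytes was at 2.32, 1.32 and 2.67% of its microglia level in WT and at 2.28, 1.69 and 1.85% in KO, inside the range of the 10 markers in 6 of 6 animals. The low Socs3 level of astrocytes was therefore of the size of the microglia markers there, and the part of microglia RNA in it was not tested. Il6ra differed from this: at 2.71, 6.81 and 11.4% in WT and 5.02, 3.47 and 8.79% in KO, it lay above all 10 markers in 4 of 6 animals.

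In the other direction, the 10 astrocyte markers, summed, had 1.78 to 3.63% of their astrocyte level in microglia. Cntfr in microglia was at 2.87, 1.93 and 1.58% of its astrocyte level in WT and at 0.849, 1.45 and 2.31% in KO, inside the range of the 10 markers in 6 of 6 animals. It was above the summed markers in WT replicate 1 (2.87 against 2.56%) and KO replicate 3 (2.31 against 1.82%), and below them in the other animals. The low Cntfr level of microglia was thus of the size of the astrocyte markers there, and the part of astrocyte RNA in it was not tested. Osmr was below all 10 markers in 4 of 6 animals, and at 3.21 and 4.70% in WT replicates 1 and 2. Of the markers of other cell types, those of choroid plexus made up 0.0887 to 0.222% of counts in WT microglia and 0.0358 to 0.0897% in KO microglia, and 0.0532 to 0.113% in astrocytes. Neuronal markers made up at most 0.0139% and markers of border macrophages and monocytes at most 0.0244% of counts. Oligodendrocyte markers reached 0.175% in microglia and 0.410% in astrocytes, and markers of mural cells and fibroblasts, cells that can also carry Osmr and Lifr, 0.0374 to 0.050% in astrocytes against 0.00120 to 0.00440% in microglia. The part of these cells in the levels of the 8 genes was not tested.

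**Figure D3:**
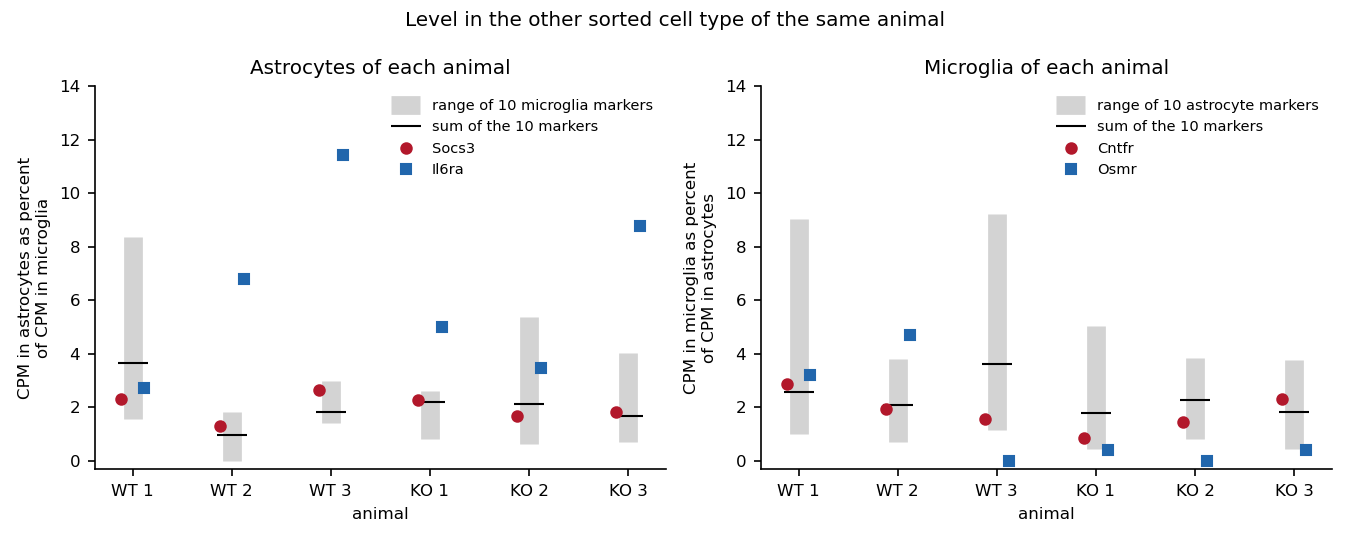
Level in the other sorted cell type of the same animal, as a percentage (vertical axes) for each of the 6 animals (horizontal axes). Grey bars span the 10 markers, black dashes mark their sum, red circles show Socs3 (left) and Cntfr (right), and blue squares show Il6ra (left) and Osmr (right). Il6ra rises above the marker range in 4 of 6 animals, while Socs3 and Cntfr stay inside it in 6 of 6.

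The wider pathway was read from lists of ligands, receptors, kinases and STATs, brakes and known STAT3 targets. The part of microglia RNA in their low astrocyte values, and of astrocyte RNA in their low microglia values, was not tested. Among 10 further ligands, 8 were tested, 3 of them called higher in astrocytes and 5 in microglia. Of all 17294 genes tested, 36.4% were called higher in astrocytes and 28.2% in microglia, and each list below stands beside these shares. Oncostatin M, the ligand of the chain found in astrocytes, was found almost entirely in the microglia libraries. Osm was at 118, 45.0 and 47.5 CPM in WT microglia and 76.5, 60.1 and 67.4 CPM in KO microglia, and at most 2.52 CPM in astrocytes (log2 -6.19 ± 0.59 SE, edgeR adjusted p = 3.54e-07). The microglia and astrocyte libraries did not overlap. Ebi3, a subunit of interleukin-27 and interleukin-35, was at 9.16 ± 2.67 CPM in microglia and 0.163 ± 0.255 CPM in astrocytes (SD, n = 6, log2 -7.14 ± 0.87 SE). Ebi3 had 0 counts in all KO astrocyte libraries, so the size of its fitted difference rests partly on an empty group. Its partner Il27 was at 2.49 ± 0.900 CPM in microglia and had 0 counts in all astrocyte libraries, at least 10.7-fold higher against a floor of 3 counts per library. With Il27 at that bound the median log2 difference of the ligands was -3.99, and -4.61 as fitted.

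The 3 ligands called higher in astrocytes were all scarce. Cntf, the ligand of Cntfr, was at 1.96 ± 1.85 CPM in astrocytes and 0.154 ± 0.251 CPM in microglia (SD, n = 6, log2 5.24 ± 1.62 SE, edgeR adjusted p = 0.0128), and lost the call without WT replicate 3 (adjusted p = 0.0547). Cntf had 0 counts in all WT microglia libraries, so the size of this difference also rests partly on an empty group. Ctf1, cardiotrophin 1, was at 1.77 ± 1.64 against 0.183 ± 0.235 CPM (edgeR adjusted p = 0.0316, and 0.0535 with the animal as a block). Without WT replicate 1, 2 or 3, or KO replicate 1 or 3, its adjusted p was 0.0972, 0.103, 0.0530, 0.0770 and 0.0506. Il6 itself was at 1.17 ± 1.14 CPM in microglia and 0.0862 ± 0.134 CPM in astrocytes.

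Of 9 further receptors 8 were tested, 3 called higher in each cell type, with a median log2 difference of 1.00. Among all genes 64.6% were called, 36.4% higher in astrocytes and 28.2% in microglia, with a median of 0.19. The count of receptors called is thus near the share of all genes. Il10ra, the ligand-binding interleukin-10 receptor, was at 502 ± 95.0 CPM in microglia and 7.54 ± 5.38 CPM in astrocytes (SD, n = 6, log2 -5.79 ± 0.53 SE). Csf3r, the receptor of granulocyte colony-stimulating factor, was at 480 ± 24.7 against 9.26 ± 6.08 CPM (log2 -5.43 ± 0.37 SE), and Il10rb also stood higher in microglia (log2 -3.13 ± 0.17 SE). Il11ra1, the interleukin-11 chain that joins gp130, was at 54.0 ± 3.85 CPM in astrocytes and 30.8 ± 8.00 CPM in microglia (log2 1.10 ± 0.20 SE, edgeR adjusted p = 1.84e-04). The other receptors called higher in astrocytes were Il12rb1 and Il31ra, at a mean of 1.96 and 0.882 CPM there. With the animal as a block their edgeR adjusted p rose from 0.0234 and 0.0132 to 0.107 and 0.0634. Il12rb1 also lost its call without WT replicate 2 or 3 or KO replicate 1 (0.0784, 0.120 and 0.208), and Il31ra without WT replicate 2 or KO replicate 3 (0.0635 and 0.0617).

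The kinases and the other STATs leaned to microglia. Of 9 tested, 8 were called higher in microglia and 0 in astrocytes, with a median log2 difference of -1.55. Among all genes 28.2% were called higher in microglia and 36.4% in astrocytes, with a median of 0.19. Jak3, the kinase of the common γ chain, was at 108 ± 27.8 CPM in microglia and 3.47 ± 2.04 CPM in astrocytes (SD, n = 6, log2 -4.70 ± 0.35 SE), Stat6, the interleukin-4 STAT, at 148 ± 21.9 against 11.1 ± 4.77 CPM (log2 -3.51 ± 0.27 SE) and Tyk2 at 62.7 ± 17.4 against 9.76 ± 2.15 CPM (log2 -2.41 ± 0.21 SE). Among the kinases of gp130, Jak1 was 2.15-fold higher in microglia (log2 -1.11 ± 0.14 SE), and Jak2 did not pass the test (log2 -0.18 ± 0.16 SE).

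Of 16 further brakes, 5 were called higher in microglia and 2 in astrocytes, against 28.2% and 36.4% of all genes. The brakes called were thus a smaller share than the 64.6% of all genes. Ptpn6, the phosphatase SHP-1, was at 345 ± 37.5 CPM in microglia and 11.4 ± 5.98 CPM in astrocytes (SD, n = 6, log2 -4.60 ± 0.36 SE), and Ptpn1 was 10.8-fold higher in microglia (log2 -3.43 ± 0.18 SE). Among the members of the SOCS family, the estimates were smaller than that of Socs3. Cish (log2 -2.95 ± 0.88 SE), Socs4 (log2 -0.79 ± 0.18 SE) and Socs6 (log2 -0.83 ± 0.18 SE) were higher in microglia, Socs2 was higher in astrocytes at 9.35 ± 1.97 against 2.0 ± 1.15 CPM (log2 2.7 ± 0.40 SE, edgeR adjusted p = 3.64e-05), and Socs1, Socs5 and Socs7 did not pass the test. Ptpn11, the phosphatase SHP-2 that binds the same site of gp130 as Socs3, was higher in astrocytes (log2 0.68 ± 0.16 SE, edgeR adjusted p = 0.00149), and not called without KO replicate 1 (adjusted p = 0.0559).

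Genes known as STAT3 targets split in direction. Of 28 tested, 18 were called higher in microglia and 6 higher in astrocytes, with a median log2 difference of -3.17. Among all genes the shares were 28.2% and 36.4%, and the median was 0.19. The genes of largest difference in microglia were Batf, a transcription factor of the AP-1 family (log2 -5.90 ± 0.99 SE), and the inflammation brakes Tnfaip3 (log2 -5.33 ± 0.36 SE) and Zfp36 (log2 -5.32 ± 0.32 SE). Batf had 6 counts over all astrocyte libraries, so the size of its difference is uncertain. Zfp36 was at 1642 ± 450.4 CPM in microglia and 33.8 ± 16.1 CPM in astrocytes (SD, n = 6). Higher in astrocytes were the genes of astrocyte reactivity Gfap, at 616 ± 154 against 17.9 ± 12.3 CPM, and Serpina3n, at 449 ± 156 against 9.05 ± 6.14 CPM (SD, n = 6), together with Timp1, at 4.61 ± 1.77 against 0.292 ± 0.714 CPM. Gfap and Serpina3n had log2 differences of 5.52 ± 0.32 and 5.88 ± 0.44 SE. Some genes of this list also mark a cell type in any state, as Gfap and Vim do astrocytes and Cd14 does myeloid cells. The TTCNNNGAA core was found in the promoters of 4 of 24 listed targets that the table holds (16.7%), against 8.13% of all 27025 genes searched. With so few genes this is a description only. The 4 were Steap4 and Icam1 with TTCCCGGAA, Fgl2 with TTCTGGGAA and Zfp36 with TTCTGCGAA. Steap4 was higher in astrocytes and the other 3 in microglia.

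The groups are laid out to ask what loss of importin α4 changes in each cell type. No gene of the axis passed the test of KO against WT in either of them. In microglia 7 of the 8 genes could be tested and 0 were called, 0 with an unadjusted p under 0.05. Over 14191 genes the share called was 0%, and 7.42% had an unadjusted p under 0.05. 4 of the 7 estimates were lower in KO, as were 50.1% of all. In astrocytes 8 of 8 genes were tested and 0 were called, 0 with an unadjusted p under 0.05, against 0% and 2.37% of 15755 genes. Here 2 of the 8 estimates were lower in KO, against 50.6% of all. DESeq2 called 41 genes in microglia and 6 in astrocytes, limma voom 0 and 0, and neither called a gene of the axis.

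**Figure D4:**
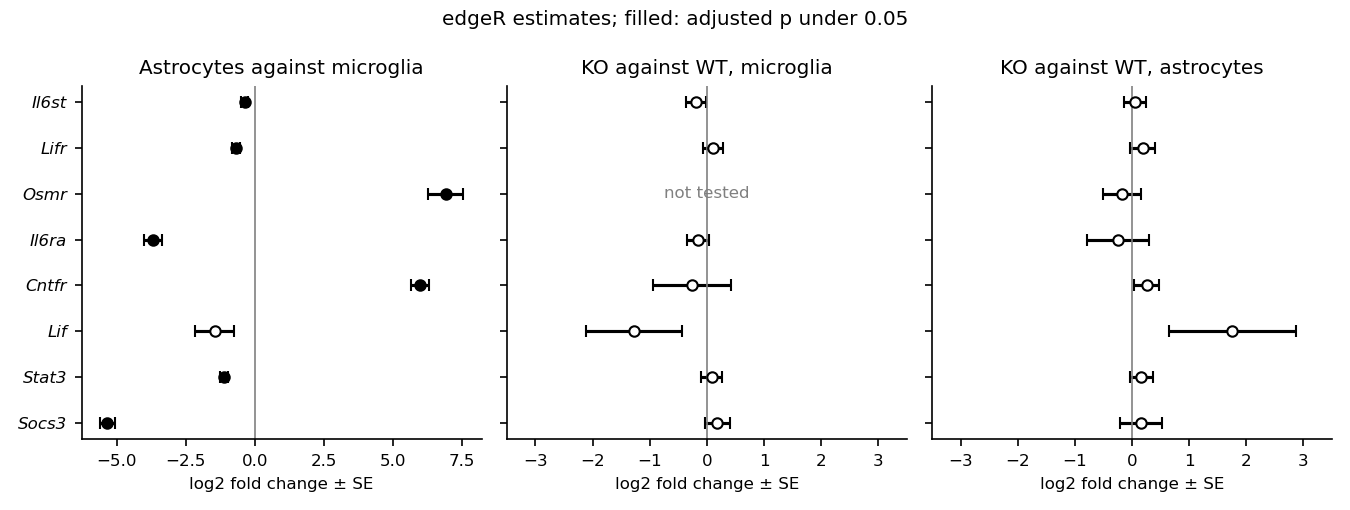
log2 fold changes of the 8 genes with their SE (horizontal axes) for astrocytes against microglia (left), KO against WT in microglia (middle) and KO against WT in astrocytes (right, same scale as the middle panel). Filled points passed an adjusted p of 0.05 in edgeR, which 7 of 8 did on the left and 0 in the other panels.

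For Stat3, the estimate was close to 0 in both cell types: log2 0.08 ± 0.19 SE in microglia (edgeR adjusted p = 0.941) and log2 0.16 ± 0.21 SE in astrocytes (edgeR adjusted p = 0.999). These are transcript levels, and where the protein lay in the cell was not measured. Socs3, the readout of the axis closest to STAT3, had log2 0.19 ± 0.22 SE in microglia and 0.16 ± 0.36 SE in astrocytes. In microglia the groups overlapped, with KO replicate 1 below WT replicates 1 and 3, and in astrocytes the KO libraries lay within the span of the WT libraries. Without WT replicate 2, the lowest library, the estimate in astrocytes was -0.17.

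The receptor chains gave estimates of the same small size. In microglia Il6st was at log2 -0.19 ± 0.18 SE, Lifr at 0.11 ± 0.18 SE, Il6ra at -0.15 ± 0.19 SE and Cntfr, which rests on 18 to 85 counts there, at -0.26 ± 0.68 SE. In astrocytes Il6st was at log2 0.06 ± 0.19 SE, Lifr at 0.18 ± 0.21 SE, Osmr at -0.17 ± 0.34 SE, Cntfr at 0.26 ± 0.21 SE and Il6ra at -0.25 ± 0.54 SE. WT and KO libraries overlapped for all of these chains in both cell types. A p over the threshold does not show that the levels were alike. On simulated counts the test recovered 34.0% of genes changed 2-fold in microglia and 19.6% in astrocytes. It recovered 76.3% and 58.6% of genes changed by 2 on the log2 scale. The changed genes were drawn from all that passed the filter, low ones included, with the spread typical of their level. These shares are therefore not those of the receptor chains themselves. Osmr was left out of the microglia test for its low counts, 18 over the WT libraries and 2 over the KO libraries, a ratio of 8.82 with an exact 95% interval of 2.11 to 78.4 that covers counting error alone. Of the 18 counts, 12 came from WT replicate 2, and WT replicate 3 had 0.

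Lif had the largest estimates and the least certain ones. In microglia it was at log2 -1.28 ± 0.84 SE (edgeR adjusted p = 0.774), moving to -0.18 without WT replicate 1. In astrocytes it was at log2 1.76 ± 1.12 SE (edgeR adjusted p = 0.999), and the 3 KO libraries, at 32 to 35 counts, lay above the 3 WT libraries, at 4 to 21 counts. Non-overlap of WT and KO was seen for 8.13% of the genes tested in astrocytes. It was seen for 0 of the 7 other axis genes there, and for 0 of the 7 tested in microglia, where the share over all genes was 13.1%.

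Whether the KO effect differed between the cell types was tested in a fit of all 12 libraries. It passed for 0 of 8 axis genes and for 0% of 17294 genes, at an adjusted p under 0.05 in edgeR. At an unadjusted p under 0.05 stood 2 axis genes and 6.37% of all genes. These were Lif, at a log2 difference of 3.17 ± 1.42 SE (unadjusted p = 0.0424, edgeR adjusted p = 0.768), and Osmr, at 2.88 ± 1.26 SE (unadjusted p = 0.0371, edgeR adjusted p = 0.748). They had the fewest counts of the 8 genes. Osmr passed the filter of this fit only through its astrocyte counts. Its microglia counts, 18 in WT and 2 in KO, were too few for a test there, so nothing is drawn from its p. DESeq2 called 73 genes and limma voom 0, none of them in the axis. All 8 estimates were above 0, and the median of all genes was itself at 0.16. For Il6ra, Socs3, Lifr and Stat3 the sign turned under library totals, at -0.22, -0.19, -0.03 and -0.04.

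Elsewhere in the pathway 0 genes were called between KO and WT in any list, in either cell type. In microglia, 5 of 63 tested genes of the lists had an unadjusted p under 0.05, a share near the 7.42% of all genes, so their values are given as a description. Gfap had the smallest p, at 23.6, 13.9 and 39.7 CPM in WT microglia and 5.14, 14.6 and 10.5 CPM in KO microglia, with WT replicate 2 inside the KO span (log2 -1.36 ± 0.42 SE, edgeR adjusted p = 0.551). Gfap was 45.8-fold higher in astrocytes, and the 10 astrocyte markers made up 0.0325 to 0.0704% of counts in WT and 0.0354 to 0.0376% in KO microglia. The part of astrocyte RNA in the Gfap value was not tested. It was called when no filter on low counts was used (adjusted p = 0.0154).

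Zfp36, which encodes tristetraprolin, a protein that destabilises cytokine transcripts, was at 1224, 1129 and 1553 CPM in WT microglia and 1605, 2101 and 2239 CPM in KO microglia. All KO libraries lay above all WT libraries (log2 0.58 ± 0.20 SE, unadjusted p = 0.0106, edgeR adjusted p = 0.587). Ptpn11 was at 120, 101 and 121 CPM in WT and 71.2, 74.5 and 100.3 CPM in KO microglia, again without overlap, as for 13.1% of all genes (log2 -0.50 ± 0.20 SE, edgeR adjusted p = 0.620). Tyk2 was at 94.5, 62.8 and 61.8 CPM in WT and 45.9, 62.7 and 48.1 CPM in KO microglia, with KO replicate 2 inside the WT span (log2 -0.51 ± 0.24 SE, edgeR adjusted p = 0.669). The fifth gene, Vegfa, a vascular growth factor named after its values were seen, was at 15.2, 9.24 and 20.4 CPM in WT and 2.81, 2.84 and 11.7 CPM in KO microglia, with KO replicate 3 inside the WT span (log2 -1.39 ± 0.54 SE, edgeR adjusted p = 0.616). Vegfa was 21.2-fold higher in astrocytes, and the part of astrocyte RNA in this value was not tested. With unadjusted p above 0.05, Jak3 was at log2 -0.47 ± 0.22 SE and Pias1, a SUMO ligase that restrains STATs, at 0.41 ± 0.20 SE. The receptors of smallest p were Il10rb at 0.27 ± 0.18 SE and Il10ra at -0.25 ± 0.21 SE, and the ligands Il27 at -0.61 ± 0.77 SE and Clcf1 at 0.21 ± 0.33 SE.

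In astrocytes 0 of 64 tested genes of the lists had an unadjusted p under 0.05. Stat2 was at log2 -0.55 ± 0.32 SE and Serpina3n at log2 0.51 ± 0.27 SE. Il4ra was at log2 -0.67 ± 0.40 SE, Pias2 at -0.68 ± 0.33 SE and Pias1 at -0.14 ± 0.24 SE. Il4ra had a mean of 16.6 CPM in astrocytes and 748 CPM in microglia. The part of microglia RNA in its astrocyte value was not tested. Among the ligands Osm was at -1.35 ± 1.65 SE, and the receptors of smallest p were Il12rb2 at 0.82 ± 0.74 SE and Il11ra1 at 0.17 ± 0.22 SE. Each had an edgeR adjusted p of 0.999.

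The variation between libraries of a group gave a last description of Il6st, Stat3 and Socs3. Deviations of log2 CPM from the 4 group means were correlated over the 12 libraries with those of 11912 genes, and the 3 closest genes are named, as a description of libraries that share depth and handling. For Socs3 these were Junb, a subunit of AP-1 (r = 0.96), Gadl1 (r = 0.96) and Il4ra, the interleukin-4 receptor (r = 0.95). The values of Gadl1 and Il4ra dropped to 0.75 and 0.80 without WT replicate 2, and that of Junb to 0.87. Among astrocyte libraries, WT replicate 2 was the lowest for Socs3 (10.2 CPM), Junb (5.94 CPM) and Il4ra (9.92 CPM). It also had the lowest share of the microglia markers there (0.0159% of counts). The part of microglia RNA in these correlations was not tested. Junb is an immediate early gene and, like Socs3, was far higher in microglia, at 992 ± 217 against 26.9 ± 11.2 CPM (SD, n = 6). Genes of this kind also respond to the handling of tissue, and the brains had been dissociated with a kit on a heated device before sorting, whose part in the Socs3 level was not tested.

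Closest to Stat3 were Olfml3 (r = 0.95), Robo4 (r = 0.93) and Sh3glb2 (r = 0.93), and closest to Il6st were Lrrc61 (r = 0.97), Dynlt1a (r = 0.96) and Farsb (r = 0.96). Among the axis genes themselves, deviations of Stat3 and Socs3 correlated at 0.64 and those of Stat3 and Cntfr at 0.73. Il6st and Lifr, which form the LIF receptor together, had a correlation of -0.27.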

How the data were processed

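Sorted microglia and astrocytes from 6 mice gave 12 libraries, 3 in each of the 4 groups. Per the labels' protocols, cDNA came from a SMART-Seq HT kit and was turned into Nextera libraries. No molecular identifiers are described, so counts hold amplified copies and intervals cover counting error alone. Per the submitters' processing notes, STAR 2.7.10b, RSEM 1.3.3, limma and build GRCm39 were used; for the annotation, nothing is given in the sources used here. The authors deposited a table of expected counts (estimates by gene symbol) of each cell type, without normalization. They were rounded to whole numbers.

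CPM use the library total. The test was edgeR 4.0.16 (R 4.3.3), quasi-likelihood, with TMM, filterByExpr at a minimum count of 10 and Benjamini-Hochberg adjustment over all genes tested, called under 0.05. KO and WT were fitted within a cell type, and cell types and the difference of genotype effects in all 12 libraries, as 4 group means without pairing by animal. An SE is the log2 fold change divided by the square root of F. The alternatives were DESeq2 1.42.0, limma 3.58.1 voom with quality weights, other scalings and filters, a minimum log2 fold change of 1, blocks, 1 fit for all libraries, and each replicate left out. Transcript lengths and overlapping genes came from GENCODE M21 and promoters from RefSeq (GRCm38.p6), both of an older build than the counts, which were matched by symbol. Scripts were tested on simulated data.

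The 8 genes, the lists and the tests were chosen with earlier results of these data known. Named are the 8 genes, Kpna4, and of each list the 2 genes of smallest p per cell type in KO against WT and up to 3 called genes of largest difference in each direction between cell types; Il6, Jak1, Jak2, Socs1, Socs4, Socs5, Socs6, Socs7, Vegfa, Junb, Steap4, Icam1, Fgl2, Vim and Cd14 are named beside them for their role, likeness or promoter. Some genes that this rule picks are not reported here. Likeness takes the 3 genes of highest r, leaving out clone and model names.

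The animal numbers pair each microglia with an astrocyte library, whose deviations from the group means correlated at -0.00 to 0.16 over genes. Within groups, the chi-square between libraries per degree of freedom was 29.8 to 117, well past sampling noise, so none was taken for a repeat.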

Additional observations from a re-analysis of the deposited data

How the results depend on the processing

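Of the 8 genes, 0 were called between KO and WT, or for the difference of genotype effects, under any alternative run, and 6 to 8 were called between cell types (5 with a log2 fold change of at least 1). Il6st was lost without a filter, and Lif was gained with library totals and without KO replicate 2. In all, 109 of 112 values of the genes kept direction and side of the threshold between cell types, 100 of 104 for KO in microglia, 115 of 119 for KO in astrocytes and 89 of 112 for the difference of genotype effects. All turned values were of differences that had not passed, and the cause was not tested.

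For KO in microglia Stat3 turned to -0.012 with all 12 libraries in 1 fit. For KO in astrocytes Il6st turned to -0.048 under library totals. For the difference of genotype effects, Il6ra turned to -0.074 with DESeq2, -0.068 with DESeq2 size factors, -0.22 with library totals, -0.15 without 8 abundant RNAs, -0.14 without a filter and -0.011 at a minimum count of 50. Socs3 turned to -0.076 with limma voom, -0.19 with library totals, -0.10 without the abundant RNAs and -0.11 without a filter, and Lifr and Stat3 to -0.034 and -0.042 with library totals. With 1 replicate left out at a time, ranges that crossed 0 were -0.99 to 0.045 (Cntfr) and -0.011 to 0.17 (Stat3) for KO in microglia, -0.046 to 0.15 (Il6st), -0.17 to 0.44 (Socs3) and -0.81 to 0.30 (Il6ra) for KO in astrocytes, and -0.66 to 0.53 (Il6ra), -0.29 to 0.21 (Socs3), -0.086 to 0.23 (Lifr) and -0.11 to 0.22 (Stat3) for the difference.

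Over all genes, counts called against 0 in the main test were 41 and 6 (KO in microglia and astrocytes) and 73 (difference) with DESeq2, 121, 17 and 160 without a filter, and 41 for KO in microglia with all libraries in 1 fit. Leaving out a replicate gave 0 to 2, 0 to 1 and 0 to 6. The replicate number as a block, although the labels tie no WT to a KO animal, gave 30 genes in microglia and 0 in astrocytes, none in the axis. Deviations of WT and KO libraries with the same number correlated at 0.07 to 0.27 in microglia and -0.00 to 0.32 in astrocytes. Among the genes named, the animal as a block changed no call between cell types other than those of Ctf1, Il12rb1 and Il31ra. With CPM per TMM effective library size, mean levels moved past their SD for Il6st and Lifr in KO microglia (242 and 294 CPM) and for Lif and Socs3 in KO astrocytes (3.20 and 26.2 CPM). Depth limits Lif in all groups and Osmr and Cntfr in microglia.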
